A study of Homo sapiens with 17 samples.

Results

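The very long genes examined here were the RefSeq protein-coding genes of chromosomes 1 to 22 that span at least 400 kb on GRCh38.p14. The rule used gene length and no measured value. It took 465 of 19126 protein-coding genes, with a median length of 573 kb and a longest member, RBFOX1, of 2474 kb. BMPR1B (400.5 kb) and KCNB2 (401.1 kb) lay just inside the limit, and HECW2 (399.5 kb) and DTNA (398.5 kb) just outside. Joined end to end, the bodies of these genes covered 322 Mb, or 11.2% of the span of the 22 chromosomes. Chromosome 3 carried 43 members and chromosome 19 carried 1. The libraries were CUT&Tag profiles, in which Tn5 transposase tethered to a chromatin-bound antibody tags the DNA around it, of H1 cells, an established line of human pluripotent stem cells. Cells carried shHNRNPU#1 or shHNRNPU#2, which are shRNAs against HNRNPU, or the luciferase control shLUC, all after puromycin selection, or were untransfected. H3K4me1 and H3K27ac were each profiled in 4 shHNRNPU libraries (2 repeats of each shRNA) and in 2 libraries labelled shLUC, HNRNPU in 2 libraries of untransfected cells, and POLIIS2P in 1 shHNRNPU#1 and 2 shLUC libraries. POLIIS2P is the name the labels give the remaining antibody, and the list of antibodies in the labels names neither it nor H3K4me1.

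Very long genes consist almost wholly of introns. Many encode adhesion molecules, channels and synaptic scaffolds of neurons, and a smaller number serve every cell type. RNA polymerase needs hours to cross the longest of them, and several span common fragile sites, regions that break when replication is slowed. H3K4me1 marks enhancers and the flanks of promoters, H3K27ac marks active enhancers and promoters, and HNRNPU is an abundant nuclear RNA-binding protein linked to the nuclear matrix.

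Each library was given as a list of summits, a summit being the base of highest signal of a called peak. The density of a list is its number of summits per 100 kb. A broad peak gives a single summit, so density counts separate peaks and not signal, and read depth was unknown. The lists held 144084 to 209132 summits for H3K4me1 in shHNRNPU cells, 39982 to 84085 for H3K27ac in shHNRNPU cells, 33743 and 34593 for HNRNPU, and 78211 to 85309 for POLIIS2P. For the 4 shLUC histone libraries the titles and the names inside the files gave opposite antibodies. There were 61598 and 89752 summits in the lists labelled H3K4me1 shLUC, and 174983 and 177156 in those with the H3K27ac shLUC label. Values of H3K4me1 and H3K27ac are therefore given from the shHNRNPU libraries unless the comparison is with shLUC. No list was a copy of another, since only 1.68% to 8.74% of summits fell on identical bases in a pair of repeats. Of the 9 pluripotency markers found in the gene table, 7 had a POLIIS2P summit within 1000 bp of an end in all 3 libraries, and POU5F1 and SOX2 had none. Of 10 markers of other cell types, COL1A1 and NEUROD1 had a POLIIS2P summit at an end in all 3 libraries and 8 had none. With H3K27ac, 2 of the 9 pluripotency markers had an end summit in all 4 shHNRNPU libraries, against 0 of 10 for the other cell types. At the HNRNPU gene, 4 POLIIS2P summits lay at the ends in shHNRNPU#1 and 3 in each shLUC library. An shRNA acts on RNA, so these counts do not check the knockdown.

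The promoters shown next belong to the long genes whose ends carried a summit in both HNRNPU libraries and the highest mean score over them. The score is −log10 of a p-value or q-value and averaged 53.4 at ADGRV1, 45.5 at MBD5, 45.1 at SND1 and 35.5 at STXBP5L. ADGRV1 is a very large adhesion receptor of sensory hair cells, MBD5 a methyl-CpG-binding-domain protein, SND1 a nuclease-domain protein of RNA silencing and splicing, and STXBP5L a regulator of vesicle release. Each line gives 250 bases upstream of a RefSeq start (GRCh38.p14, plus strand): chr5:90558547-90558796, chr2:148020761-148021010, chr7:127651944-127652193 and chr3:120907955-120908204. Capitals mark 3 promoter motifs on either strand, and neighbouring matches may share letters. The GC box was searched as GGGCGG, with its complement CCGCCC. The CCAAT box was searched by those 5 letters, with the complement ATTGG. The TATA box was searched as TATAAA, with the complement TTTATA.
ADGRV1: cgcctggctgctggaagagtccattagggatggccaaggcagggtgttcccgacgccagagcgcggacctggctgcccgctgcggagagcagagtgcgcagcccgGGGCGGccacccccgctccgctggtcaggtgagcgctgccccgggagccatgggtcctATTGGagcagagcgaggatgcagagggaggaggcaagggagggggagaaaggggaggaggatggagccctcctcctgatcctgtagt
MBD5: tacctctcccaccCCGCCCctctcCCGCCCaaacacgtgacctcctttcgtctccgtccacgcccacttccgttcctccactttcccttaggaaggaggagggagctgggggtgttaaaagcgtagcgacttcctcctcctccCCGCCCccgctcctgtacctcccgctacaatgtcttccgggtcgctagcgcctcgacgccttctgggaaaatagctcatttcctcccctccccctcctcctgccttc
SND1: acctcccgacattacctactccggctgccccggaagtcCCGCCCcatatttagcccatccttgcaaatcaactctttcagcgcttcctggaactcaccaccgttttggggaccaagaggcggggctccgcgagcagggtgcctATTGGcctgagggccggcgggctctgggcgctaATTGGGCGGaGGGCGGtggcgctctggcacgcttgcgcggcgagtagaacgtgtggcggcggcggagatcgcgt
STXBP5L: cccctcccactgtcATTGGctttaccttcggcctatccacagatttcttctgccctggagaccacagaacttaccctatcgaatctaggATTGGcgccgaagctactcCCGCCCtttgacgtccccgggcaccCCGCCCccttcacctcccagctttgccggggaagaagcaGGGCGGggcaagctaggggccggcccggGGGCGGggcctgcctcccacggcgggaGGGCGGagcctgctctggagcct

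In the first HNRNPU library the summit lay 24 bp upstream of the printed start at ADGRV1, 93 bp at MBD5 and 183 bp at STXBP5L. At SND1 it lay 391 bp upstream, outside the printed window. All 4 windows held at least 1 GC box and none held the TATA box letters, and their GC content was 62.4% to 68.4%. RefSeq promoters of the same length were given for 377 of the 465 long genes and 15101 of all 19126. A GC box was found in 53.1% of the long genes' promoters and 56.1% of all, and the CCAAT box in 29.4% and 34.2%. The TATA box letters were found in 7.43% and 9.42%. Among long genes with an HNRNPU summit at an end in both libraries, 67.5% of 163 promoters held a GC box and the median GC content was 65.6%. Among those with none in either library, 34.9% of 129 promoters held one and the median GC content was 53.6%. GC content thus differed between these groups together with the motif, and its part was not tested.

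The bodies of the very long genes, taken from 1000 bp inside each end, were compared with the average density of the same list. For H3K4me1 they sat at the average, with 5.75 ± 1.19 summits per 100 kb (SD, n = 4) in the long bodies against 5.85 ± 1.03 over the chromosomes. The log2 ratio was −0.032 ± 0.047, and the 4 libraries ran from −0.073 to 0.016, on both sides of 0. H3K27ac was below its average in all 4 libraries, at −0.42 ± 0.13. HNRNPU was lower still, at −0.69 ± 0.021 (n = 2), or 0.737 summits per 100 kb against 1.19. POLIIS2P was lowest, at −1.01 ± 0.15 (n = 3), which is 0.497 of the average. Its shLUC libraries gave −0.88 and −0.98 and the shHNRNPU#1 library −1.17. The log2 ratio of H3K4me1 exceeded that of H3K27ac by 0.39, with no overlap of the 4 libraries against 4. An exact permutation test (two-sided) gave p = 0.0286, the smallest this design allows. The 4 libraries are 2 repeats of each shRNA and grouped by shRNA. H3K27ac stood at −0.55 and −0.52 with shHNRNPU#1 and at −0.31 and −0.29 with shHNRNPU#2. Both the test and the SDs treat them as 4 separate units, and no block by shRNA was run. The H3K4me1 lists were longer than the H3K27ac lists. With the 20000 strongest summits of each list the difference was 0.55 (exact permutation test, p = 0.0286), and the part of list length was not tested further.

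Length classes of protein-coding genes put these values in order. POLIIS2P fell from 1.58 ± 0.083 in genes under 30 kb to 1.31 ± 0.023 in genes of 30 to 100 kb, 0.62 ± 0.048 at 100 to 400 kb and −1.01 at 400 kb or more. The step between the last 2 classes was the largest, and only sequence outside protein-coding genes was lower (−1.71 ± 0.030). HNRNPU ran 0.83, 0.19, −0.083 and −0.69 across the same classes and −0.80 outside genes. The long bodies therefore held HNRNPU summits at close to the density of sequence outside genes. H3K27ac ran 1.00, 0.85, 0.52 and −0.42, against −0.91 outside genes. H3K4me1 changed least, at 0.77, 0.43, 0.47 and −0.032, against −0.57 outside. Set against the joined bodies of all shorter protein-coding genes instead of the whole span, the long bodies stood at −0.53 for H3K4me1, −1.12 for H3K27ac, −0.83 for HNRNPU and −2.02 for POLIIS2P on the log2 scale.

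**Figure D1:**
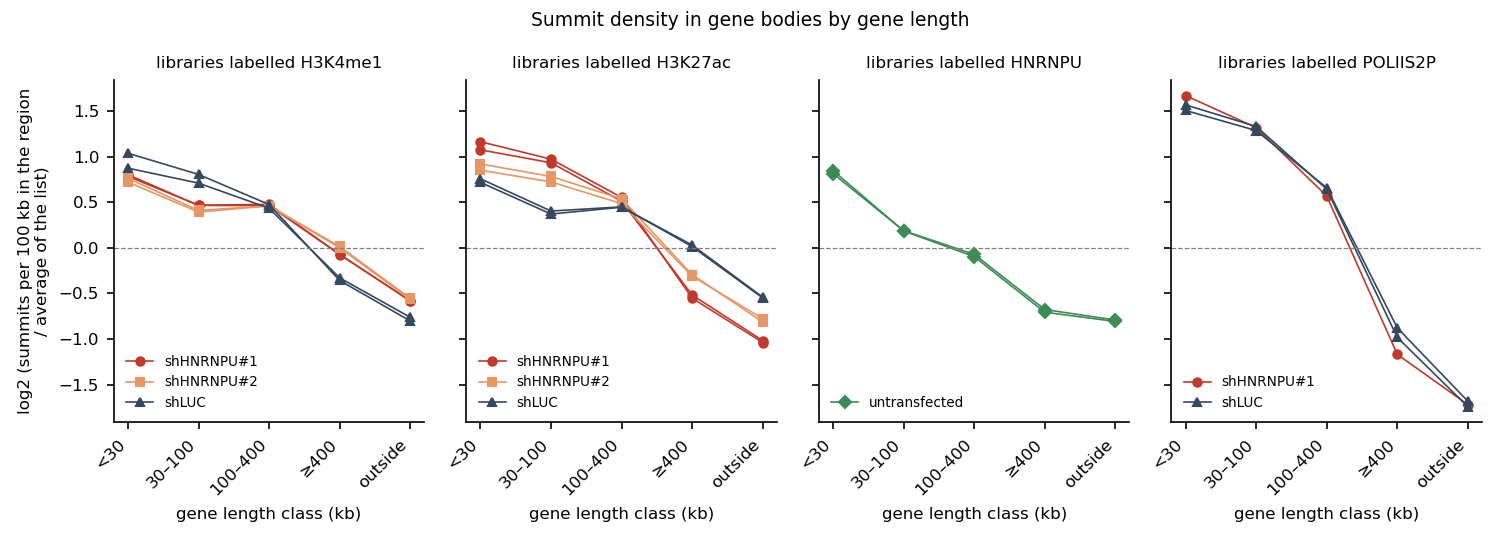
Log2 ratio of summit density to the list average (vertical axis) in gene bodies of 4 length classes and outside protein-coding genes (horizontal axis), with 1 line per library and 1 panel per labelled antibody. Genes of 400 kb or more sat at −1.17 to −0.88 for POLIIS2P and at −0.073 to 0.016 for H3K4me1 in shHNRNPU cells.

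The average hid a wide spread among members. The median long gene had 0.821 ± 0.046 of the list average for H3K4me1, 0.597 ± 0.108 for H3K27ac, 0.554 ± 0.032 for HNRNPU and 0.131 ± 0.037 for POLIIS2P. In genes of 100 to 400 kb the same medians were 1.08, 1.12, 0.769 and 1.16. The tenth of the long genes richest in POLIIS2P, 47 genes, held 51.9% ± 2.59 of all POLIIS2P summits in long bodies. For the other antibodies the richest 47 genes held 27.3% to 30.8%. Density above the list average in every library of an antibody was found in 165 long genes (35.5%) for H3K4me1, against 41.9% of all genes of 50 kb or more. The counts were 84 (18.1%) for H3K27ac against 34.8%, 71 (15.3%) for HNRNPU against 29.3%, and 72 (15.5%) for POLIIS2P against 48.9%. The POLIIS2P share of the long genes was thus the one farthest below its background. At least 2 times the average in every library was reached by 47 long genes (10.1%) for H3K4me1 against 18.3%, by 19 (4.09%) for H3K27ac against 15.8%, by 3 (0.645%) for HNRNPU against 8.38% and by 37 (7.96%) for POLIIS2P against 31.4%. Shorter genes of the background expect fewer summits, so their ratios scatter more, and the part of this in these shares was not tested. A body without any POLIIS2P summit in any of the 3 libraries was found in 110 long genes (23.7%), against 17.0% of all genes of 50 kb or more, although a longer body has more room for a summit. For HNRNPU this held for 5 long genes against a background of 20.7%, for H3K27ac for HYDIN alone against 5.29%, and for H3K4me1 for 0 against 5.21%. No member lacked summits of all 17 lists.

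The ends of the long genes gave a different picture. A summit within 1000 bp of either end was found in 67.0% ± 6.66 (SD, n = 4) of long genes for H3K4me1, against 63.8% ± 6.05 of all protein-coding genes. For HNRNPU the share was 53.9% ± 2.59 (n = 2), against 55.3%. The long genes' share was the higher one in all 4 H3K4me1 libraries, by less than the spread between them, and in 1 of the 2 HNRNPU libraries. H3K27ac was at 32.4% ± 7.43 against 44.2% ± 7.99, and POLIIS2P at 45.6% ± 2.18 (n = 3) against 63.0% ± 1.18. In each of the 4 H3K27ac and 3 POLIIS2P libraries the long genes' share lay below that of all genes. An end summit in every library was found in 227 long genes (48.8%) for H3K4me1 with a background of 48.4%, in 201 (43.2%) for HNRNPU with 48.1%, in 80 (17.2%) for H3K27ac with 27%, and in 160 (34.4%) for POLIIS2P with 55.0%. In genes of 100 to 400 kb these shares were 50.4%, 53.7%, 28.7% and 53.0%. The density inside the end windows exceeded the list average 12.1-fold for HNRNPU, 4.88-fold for POLIIS2P, 4.29-fold for H3K27ac and 4.10-fold for H3K4me1.

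Strand was known for 377 of the long genes, and with each antibody more of them carried a summit at the 5′ than at the 3′ end. HNRNPU summits were found at the 5′ end of 53.9% ± 3.38 of these genes and at the 3′ end of 1.33% ± 0.38. In the other genes with a strand these shares were 55.4% and 6.32%. POLIIS2P was found at the 5′ end of 40.1% ± 1.62 and at the 3′ end of 11.1% and 12.5% in the shLUC libraries but 6.63% in shHNRNPU#1. Its shares in the other genes were 59.1% ± 1.05 at the 5′ end and 27.2% to 28.7% at the 3′ end. For H3K4me1 the shares were 61.2% at 5′ ends and 13.7% at 3′ ends, against 58.5% and 18.4% in the other genes. For H3K27ac they were 29.9% and 4.71%, against 41.8% and 9.48%.

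Density was then followed from each end into the gene. In the 1 to 5 kb after the start, H3K4me1 stood at 2.13 ± 0.07 times its average and HNRNPU at 2.12 ± 0.28. HNRNPU dropped to 0.753 ± 0.17 at 5 to 20 kb and stayed between 0.559 and 0.685 from 20 kb onward. H3K4me1 stayed between 0.896 and 1.16 beyond 5 kb. H3K27ac showed no such rise behind the start, with 0.769 ± 0.12 at 1 to 5 kb and 0.812 ± 0.07 at 200 to 400 kb. POLIIS2P declined along the gene, from 0.963 ± 0.06 at 1 to 5 kb to 0.783 ± 0.06 at 20 to 50 kb, 0.573 ± 0.06 at 100 to 200 kb and 0.351 ± 0.03 beyond 400 kb. Only the longest members reach far into the last bin, so it does not hold the same mix of genes. Before the 3′ end, in the last 1 to 5 kb, POLIIS2P stood at 1.69 ± 0.13 and H3K27ac at 1.60 ± 0.05, each above its value at the same distance from the start in every library. HNRNPU showed no such rise (0.783 ± 0.25). Within the 141 genes with strand that carried POLIIS2P at an end in both shLUC libraries the shape near the start was different. The 2 shLUC libraries stood at 1.19 and 1.22 at 1 to 5 kb, at 1.55 and 1.66 at 5 to 20 kb and at 1.73 and 1.72 at 20 to 50 kb. From there they declined to 0.619 and 0.630 beyond 400 kb. The same 2 libraries chose these 141 genes, so their levels are a description only.

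**Figure D2:**
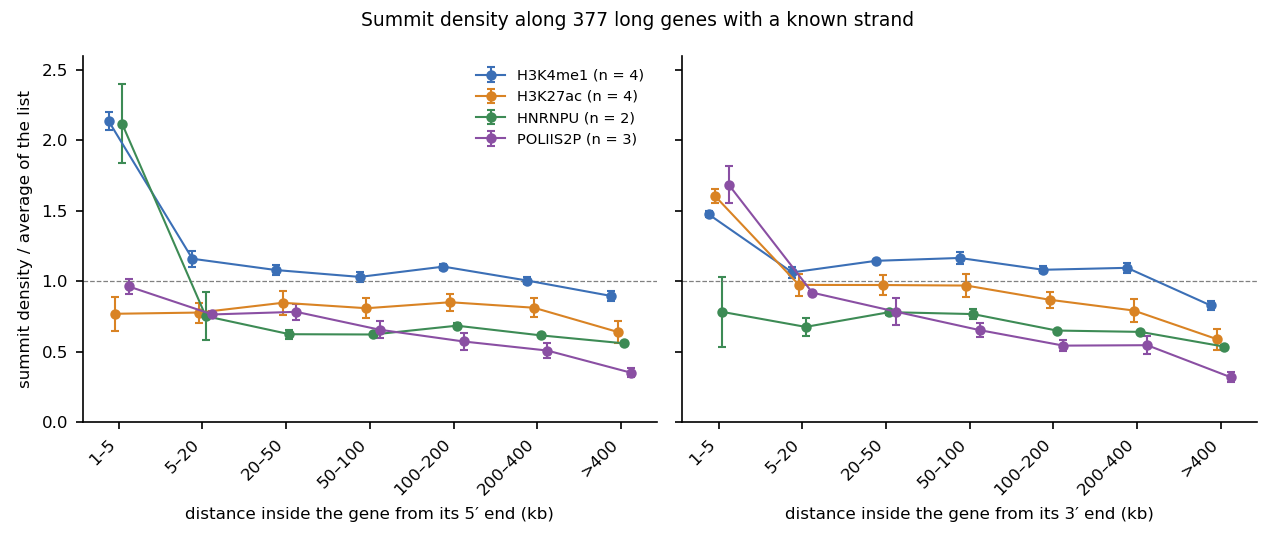
Summit density relative to the list average (vertical axis) by distance inside the gene from its 5′ end (left) and 3′ end (right) in kb, over 377 long genes with a known strand; points are means over the libraries of an antibody and bars are SD. HNRNPU and H3K4me1 stood at 2.12 and 2.13 in the first 1 to 5 kb and lower beyond, and POLIIS2P fell to 0.351 beyond 400 kb.

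Long genes often hold further starts of their own. RefSeq gave 488 internal starts in 217 long genes, whose windows cover 0.259% of the joined bodies. In these windows HNRNPU stood at 10.9 ± 1.19 times its average, H3K4me1 at 5.93 ± 0.07, H3K27ac at 4.75 ± 0.44 and POLIIS2P at 3.99 ± 0.09. The windows held 4.56% of the HNRNPU summits in long bodies and 1.57% to 2.08% of those of the other antibodies. Ends of other RefSeq genes of any type, coding or not, that lie inside long genes took a further 3.34% to 5.28%. The remaining 90.2% of HNRNPU and 93.4% to 95.1% of the other summits lay away from any such start or end, and there POLIIS2P was at 0.477 ± 0.05 and HNRNPU at 0.572 ± 0.01 of the average.

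The proteins of the long genes were grouped by role, in lists drawn up with earlier results of these data known. Every gene listed under broadly used cell functions or common fragile sites was a member, while the other lists also named genes outside the members. The values below therefore describe these lists and are not evidence on the roles. Of the members, 225 fell into at least 1 of 7 lists and 240 into none, and some genes stand in more than 1 list. Members of the list of broadly used cell functions (27 genes, such as exocyst, kinetochore and chromatin remodelling proteins) had the highest medians of the lists for every antibody. These were 1.47 for H3K4me1, 1.21 for H3K27ac, 0.944 for HNRNPU and 0.894 for POLIIS2P, beside 0.837, 0.615, 0.556 and 0.124 over all long genes. A POLIIS2P summit at an end in all 3 libraries was found in 22 of these 27 genes (81.5%), beside 34.4% over all long genes. Genes of neuronal adhesion and guidance (45) had medians of 0.784, 0.428, 0.401 and 0.025, and 15 of them held no POLIIS2P summit in any library, beside 110 of all 465. At their ends, 0 of 45 had H3K27ac in all 4 libraries, beside 17.2% over all long genes. H3K4me1 was found there in 23 (51.1%), close to the 48.8% over all long genes. Ion channels and transmitter receptors (37) were similar, with 0.843, 0.513, 0.449 and 0.077.

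Transcription, chromatin and RNA-binding regulators (37) combined a high H3K4me1 median of 1.24 with a low H3K27ac median of 0.464. Of these genes, 21 (56.8%) were above the H3K4me1 average in all 4 libraries, beside 35.5% over all long genes. Above the H3K27ac average in all 4 libraries were 10 of the 37, beside 84 of all 465 long genes. The regulators thus had the larger share for H3K27ac too, and their low H3K27ac median was not matched by this share. Medians of the regulators were 0.605 for HNRNPU and 0.223 for POLIIS2P. Signalling enzymes and cytoskeletal genes (57) had 0.990, 0.657, 0.617 and 0.158. Matrix, proteoglycan and large extracellular proteins (19) had the lowest medians of the lists for all 4 antibodies, at 0.522, 0.359, 0.263 and 0.011. Genes at common fragile sites (25) had 0.728, 0.453, 0.346 and 0.044, and 17 of them (68.0%) carried an HNRNPU summit at an end in both libraries, beside 43.2% over all long genes and 48.1% of all protein-coding genes. An H3K4me1 end summit in every library was also found in 17 (68.0%), beside 48.8% over all long genes. For H3K27ac it was 8 (32.0%), beside 17.2%, and for POLIIS2P 9 (36.0%), beside 34.4%. These are counts and medians over lists whose genes overlap in part, and no list was tested against another.

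**Figure D3:**
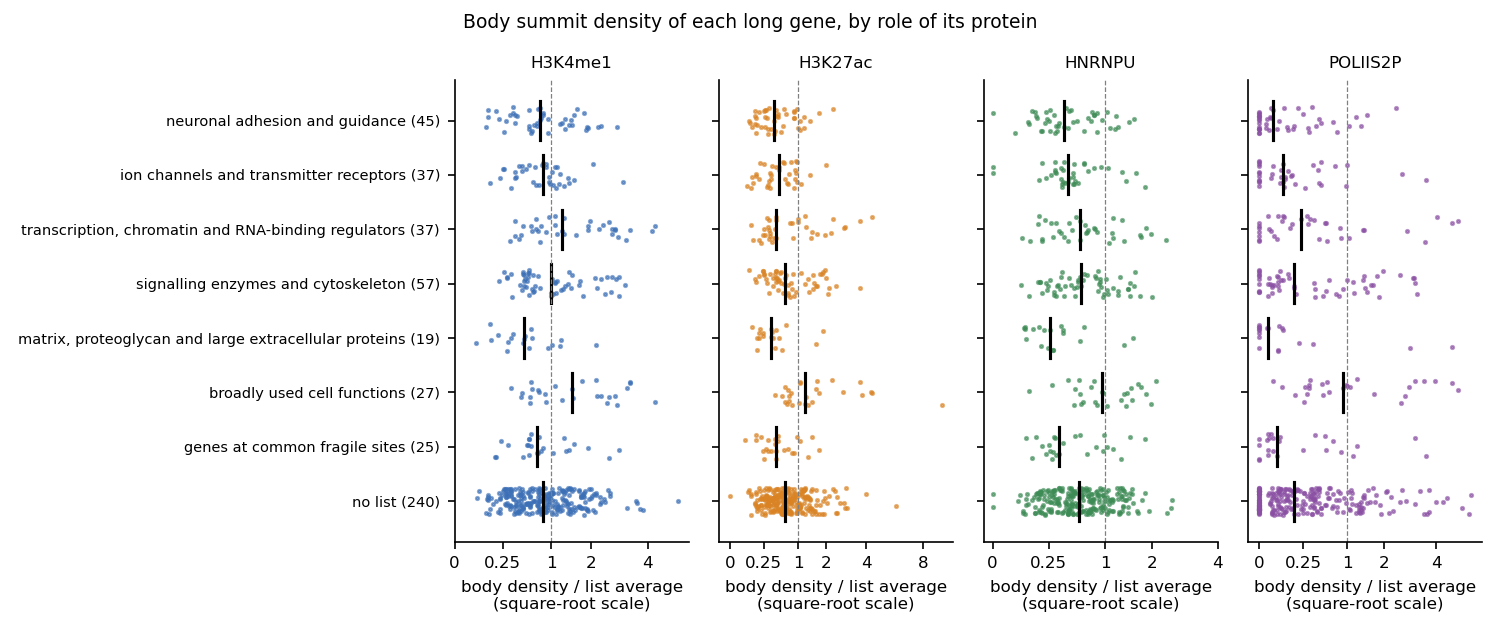
Body summit density relative to the list average (horizontal axis, square-root scale) of each long gene, by role of its protein (rows, number of genes in parentheses) and antibody (panels); points are means over libraries and black bars are medians of the list. The POLIIS2P median was 0.894 for broadly used cell functions and 0.124 over all long genes.

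Regulators of chromatin and RNA were among the members with the densest H3K4me1. GSE1, a coregulator of histone demethylation complexes (chr16:85169512-85676200), had the highest H3K4me1 density, with 147, 149, 159 and 171 summits in the 4 shHNRNPU libraries, or 5.37 ± 0.52 times the average. ARID1B, a subunit of the BAF chromatin remodelling complex, followed with 4.33 ± 0.36, MSI2, an RNA-binding protein of stem cells, with 4.18 ± 0.27, and CDH23, a cadherin of hair-cell tip links, with 3.79 ± 0.25. GSE1, ARID1B and MSI2 were also rich in POLIIS2P, at 4.31, 4.77 and 3.50 times the average. CDH23 was not, with 9, 8 and 10 POLIIS2P summits or 0.755 ± 0.10. At the other end of the order, SPOCK3, a matrix proteoglycan, held 0, 1, 2 and 3 H3K4me1 summits. HYDIN, a cilium protein, held 0, 1, 3 and 3 H3K4me1 summits and 0 of H3K27ac, HNRNPU and POLIIS2P in its body. HYDIN has a near-identical copy elsewhere in the genome, so its counts are uncertain.

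H3K27ac was led by MAD1L1, a spindle checkpoint protein (chr7:1815795-2232945), with 78, 66, 92 and 100 summits or 9.70 ± 1.5 times the average. The next gene, TBC1D22A, a Rab GTPase-activating protein, had 5.90 ± 1.6, CUX1, a homeodomain transcription factor, 4.34 ± 0.57, and RPTOR, the raptor subunit of mTORC1, 4.26 ± 0.51. MAD1L1 stood at 2.77 ± 0.21 for H3K4me1, so its place in the 2 orders differed. After HYDIN, the lowest was DPYD, the enzyme that breaks down pyrimidines, with 1, 0, 2 and 1 H3K27ac summits over 843 kb.

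HNRNPU and POLIIS2P were led by the same pair. FOXN3, a forkhead repressor (chr14:89156177-89619165), held 14 HNRNPU summits in each library (2.55 ± 0.05) and 64, 81 and 79 POLIIS2P summits (5.64 ± 0.46). ADCY2, an adenylyl cyclase (chr5:7396138-7830081), held 16 and 10 HNRNPU summits (2.52 ± 0.78) and 49, 81 and 85 POLIIS2P summits (5.75 ± 1.4). The HNRNPU counts of ADCY2 differ between libraries by more than its lead over GSE1 (2.41 ± 0.55) and MSI2 (2.37 ± 0.36), so these 4 are not ordered beyond their spread. SNTG2, a syntrophin (5.26 ± 0.43), and CUX1 (5.04 ± 0.37) came next for POLIIS2P. SNTG2 was high for POLIIS2P while its H3K4me1 was 1.57 ± 0.23. Lowest for HNRNPU were PCDH9, a protocadherin with 0 body summits in both libraries but an end summit in both, and the cadherin gene CDH12, with 0 and 1 over 1103 kb.

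The 5 longest genes were poor in POLIIS2P. RBFOX1, a neuronal splicing regulator (chr16:5239721-7713340), held 120, 135, 174 and 202 H3K4me1 summits, 1.08 ± 0.09 times the average, but 2, 6 and 1 POLIIS2P summits over 2474 kb. All 3 POLIIS2P libraries had a summit at an end of RBFOX1. CNTNAP2, a neurexin-family adhesion protein, had 13, 21 and 15 POLIIS2P summits (0.246 ± 0.05). DLG2, a synaptic scaffold, had 3, 5 and 3, and PTPRD, a receptor phosphatase, 4, 10 and 8. CSMD1, a complement-regulatory membrane protein, had 1, 1 and 0 over 2060 kb. DLG2 differed from the other 4 in H3K27ac, with 0.715 ± 0.15 of the average against 0.312 to 0.357, and an end summit in all 4 libraries.

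Within lists that were poor in POLIIS2P as a whole, single genes stood out. ITPR2, a calcium release channel, had 28, 42 and 42 POLIIS2P summits (2.61 ± 0.47). GRM7, a metabotropic glutamate receptor of 880 kb, had 0 in all 3 libraries.

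UNC5D, a netrin receptor, led neuronal adhesion and guidance with 33, 43 and 39 POLIIS2P summits (2.39 ± 0.21). TMEM132D, a membrane protein of neurons and oligodendrocytes, followed with 19, 47 and 42 (1.50 ± 0.57). LRRC4C, a netrin-G ligand of 1345 kb, had 0. FRAS1, a basement membrane protein, held 59, 72 and 67 (4.74 ± 0.27) and CSMD2 45, 52 and 66 (2.91 ± 0.51), while LRP1B, a lipoprotein receptor of the same list with 1900 kb, had 0. SHANK2, a synaptic scaffold (3.20 ± 0.17), and PTPRG, a receptor phosphatase (3.12 ± 0.16), were the highest of the signalling genes, and ERBB4, a neuregulin receptor, had 0 over 1163 kb. NPAS3, a neuronal transcription factor, had 0 as well, with H3K4me1 at 0.792 ± 0.04. At fragile sites, FHIT, the gene of the FRA3B site, held 40 to 76 H3K4me1 summits in the shHNRNPU libraries and 0 POLIIS2P summits in its body over 1504 kb, although 2 of 3 POLIIS2P libraries had one at an end. IMMP2L, a mitochondrial peptidase and the lowest of the broadly used genes, had 0, 1 and 1.

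**Figure D4:**
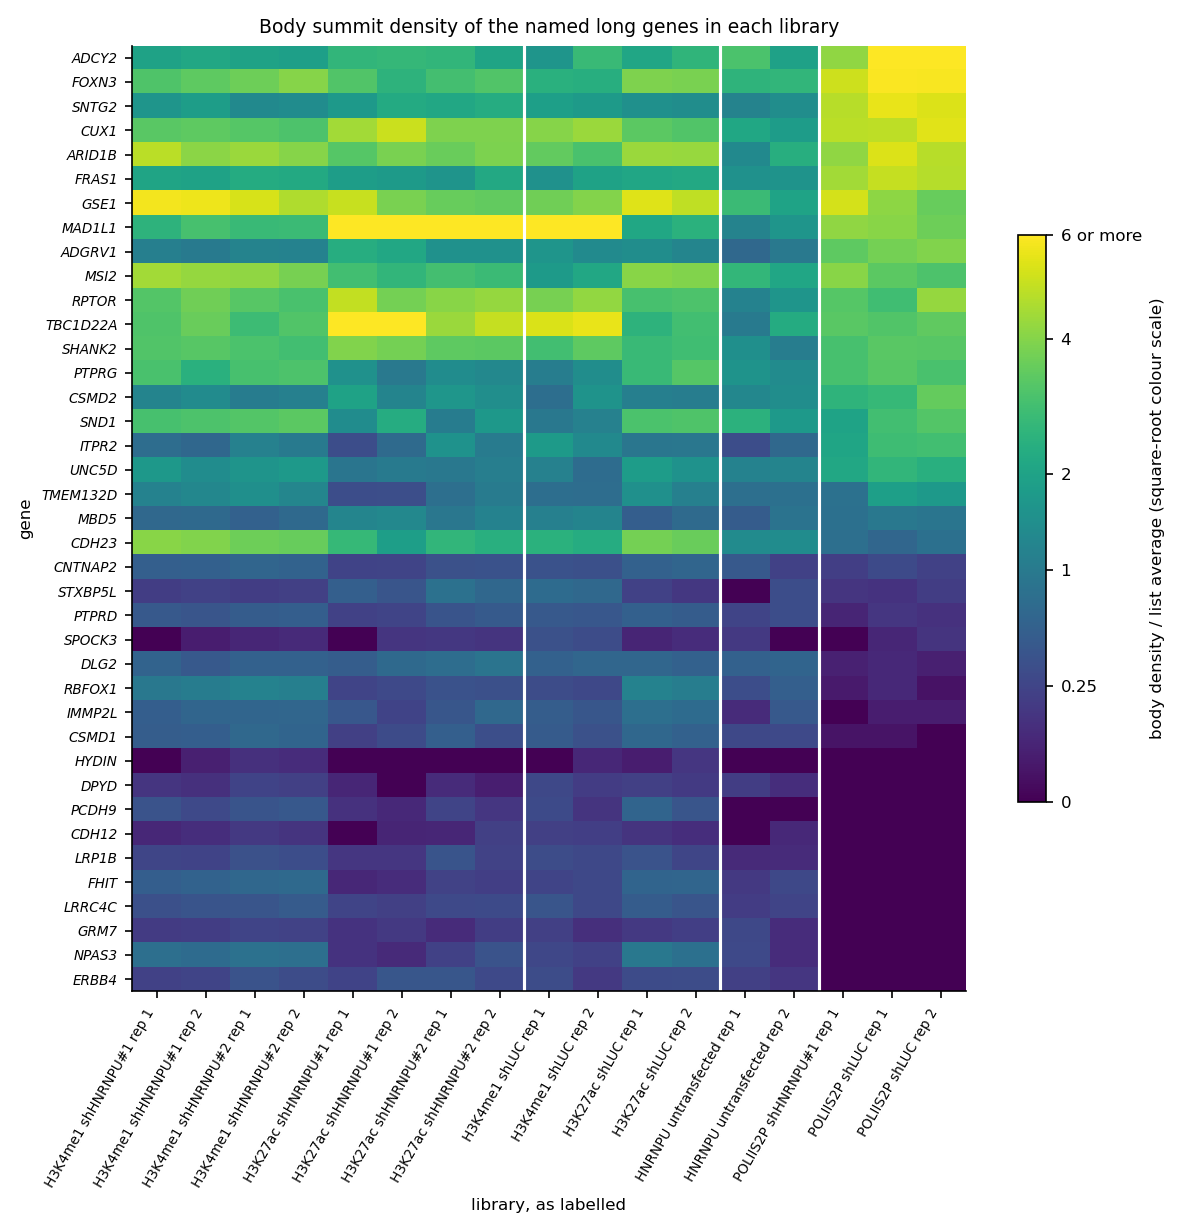
Body summit density relative to the list average (colour, square-root scale, capped at 6) of the named long genes (rows, ordered by mean POLIIS2P) in the 17 libraries as labelled (columns). The lowest rows, from HYDIN down, held 0 POLIIS2P summits in all 3 libraries.

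Members were then divided by POLIIS2P at their ends, a measure from outside the body. In the 178 genes with an end summit in both shLUC libraries the joined bodies stood at 1.23 ± 0.03 for H3K4me1, 1.06 ± 0.05 for H3K27ac, 0.827 for HNRNPU and 0.962 ± 0.08 for POLIIS2P. In the 195 genes without an end summit in any library they stood at 0.729 ± 0.03, 0.489 ± 0.08, 0.460 ± 0.01 and 0.166 ± 0.03. The remaining 92 genes lay between these for all 4 antibodies. The ranges over libraries of the 178 and the 195 genes did not overlap for any antibody. For POLIIS2P the same libraries gave both the division and the body density, so its values are a description only. Long genes with POLIIS2P at an end thus reached about the list average for POLIIS2P and H3K27ac, and still lay below it for HNRNPU. Shorter genes were not divided in this way. Undivided, the bodies of genes of 100 to 400 kb stood at 1.54 for POLIIS2P, 1.44 for H3K27ac and 0.944 for HNRNPU.

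HNRNPU sites, defined as positions where both HNRNPU libraries had summits no more than 250 bp apart, numbered 777 in the bodies of long genes. They fell in 324 genes, with 141 genes holding none. This count was not made for shorter genes, and a longer body has more room for a site, so it is a description only. Of these sites 87.9% lay away from internal starts and other gene ends. The highest score in a long body was 91.7, at chr1:6962928 inside CAMTA1, a calmodulin-binding transcription activator. An H3K4me1 summit lay within 500 bp of 88.6% ± 2.74 of the sites and an H3K27ac summit of 57.6% ± 11.2. In bodies of shorter genes, with 4438 sites, these shares were 87.0% and 56.5%, within the spread of the libraries. POLIIS2P lay at 53.9% ± 4.02 of the sites in long bodies, against 80.3% ± 2.36 in shorter genes. At HNRNPU sites on gene ends it lay at 73.0% ± 2.46 of 164 sites in long genes against 89.3% ± 0.85 of 6864 in the other genes. The 3 libraries did not overlap in either pair.

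Across the 465 genes the body densities of the antibodies ran together. Spearman coefficients between antibodies were 0.68 to 0.79, with the highest for H3K27ac and POLIIS2P. Between libraries of one antibody they were 0.97 for H3K4me1, 0.93 for POLIIS2P, 0.88 for H3K27ac and 0.75 for HNRNPU, whose lists were the shortest. Genes of one genome share GC content and mappability and are not independent, so the coefficients are given as a description.

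Whether HNRNPU knockdown changed the histone marks of long genes was compared over libraries. The 4 shHNRNPU and 2 shLUC libraries allow no p below 0.0667, and nothing in the labels says that they came from separate cultures. Joining both histone lists of a repeat avoids the conflict of names. The joined body density of long genes had a log2 ratio of −0.12 ± 0.055 in shHNRNPU and −0.078 ± 0.032 in shLUC, a difference of −0.045 (exact permutation test, two-sided, p = 0.4). With the shLUC names exchanged, the difference was −0.054 for H3K4me1 (p = 0.2, exact permutation test) and −0.076 for H3K27ac (p = 0.533, exact permutation test). With the names as labelled it was 0.31 for H3K4me1 and −0.44 for H3K27ac (p = 0.0667 each, exact permutation test). The as-labelled values set libraries of 39982 to 84085 summits against libraries of 174983 and 177156 for H3K27ac, and the sign of the H3K4me1 difference and both sizes rest on which name is right. In the 1 to 5 kb after the start of long genes the libraries labelled H3K27ac shLUC stood at 2.15 and 2.39 times their average, beside 2.09 to 2.23 for H3K4me1 and 0.634 to 0.907 for H3K27ac in shHNRNPU cells. Those labelled H3K4me1 shLUC stood at 0.681 and 0.616. In this measure, as in list length, the shLUC libraries were closer to the shHNRNPU libraries of the other name.

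A fit across all genes of 50 kb or more with an average of at least 3 summits per library (limma, Benjamini-Hochberg adjustment) gave the same division. With names exchanged, 0 of 461 tested long genes passed an adjusted p of 0.05 for H3K4me1 and 0 of 433 for H3K27ac, with backgrounds of 0% in either direction. For the joined lists it was 0 of 464, again with 0%. At an unadjusted p under 0.05 there were 77, 47 and 72 long genes, or 16.7%, 10.9% and 15.5%, against 406 of 4501, 191 of 3181 and 383 of 5082 among all genes tested. A longer body has room for more summits and so a steadier count, and the part of this in the shares was not tested. Of the 72 joined genes, 64 were lower and 8 higher in shHNRNPU, and this split was not taken over all genes tested. Without shLUC repeat 1 the joined count was 24. With the 20000 strongest summits the 3 shares of long genes were 8.06%, 9.28% and 9.49%. Among all genes tested they were 8.53%, 7.47% and 9.03%. The joined count was then 35, with 20 lower and 15 higher. The smallest p-values of the joined lists belonged to EYS, an eye protein, with a log2 change of −0.61 ± 0.15 (SE), TRHDE, a peptidase of thyrotropin-releasing hormone, with −0.74 ± 0.18, and ATRNL1, a membrane protein, with −0.76 ± 0.19, all at an adjusted p of 0.243 (limma). TRHDE held 14, 17, 29 and 37 joined summits in shHNRNPU and 41 and 43 in shLUC, from lists of different length. On the higher side were DLGAP1, a synaptic scaffold, at 0.27 ± 0.07, DENND1A, an endocytic regulator, at 0.28 ± 0.08 and NALF1, an auxiliary factor of the NALCN channel, at 0.35 ± 0.12, with adjusted p of 0.259, 0.34 and 0.483 (limma).

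Single antibodies with exchanged names put some of the same genes first. NALF1 (0.45 ± 0.11), MAD1L1 (0.27 ± 0.10) and CDH4 (0.22 ± 0.08) were on the higher side for H3K4me1, and PARD3B, a polarity protein (−0.44 ± 0.11), TRHDE (−0.72 ± 0.17) and CTNNA2, a neuronal catenin (−0.33 ± 0.09), on the lower, with adjusted p of 0.249 to 0.438 (limma). For H3K27ac, DLGAP1 (0.57 ± 0.17), VTI1A, a SNARE (1.03 ± 0.30), and FTO, an RNA demethylase (1.03 ± 0.36), were on the higher side. SYNE1, a nuclear envelope spectrin-repeat protein (−1.56 ± 0.39), PDE4D, a cAMP phosphodiesterase (−1.19 ± 0.35), and KCNIP4, a potassium channel subunit (−1.52 ± 0.45), were on the lower, all at an adjusted p of 0.789 (limma). SYNE1 held 2, 1, 6 and 6 H3K27ac summits in shHNRNPU and 13 and 12 in the exchanged shLUC libraries. None of these genes passed the threshold.

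As labelled, 184 of 461 long genes (39.9%) were higher and 73 (15.8%) lower in shHNRNPU for H3K4me1, against backgrounds of 22.3% and 22.4% of 4332 genes. For H3K27ac 27 of 459 (5.88%) were higher and 147 (32.0%) lower, against 18.7% and 8.69% of 3969. The total of 174 for H3K27ac became 49 without H3K27ac shLUC replicate 1, 51 without replicate 2 and 79 with the 20000 strongest summits, and that of 257 for H3K4me1 became 127 with the 20000 strongest summits. RBFOX1 was among the leading genes of both, with 1.80 ± 0.11 for H3K4me1 and −1.79 ± 0.18 for H3K27ac. It held 120, 135, 174 and 202 summits in the H3K4me1 shHNRNPU libraries, 17 and 22 in those labelled H3K4me1 shLUC and 176 and 165 in those labelled H3K27ac shLUC. MAD1L1 ran the opposite way, with −1.80 ± 0.10 for H3K4me1 and 2.06 ± 0.15 for H3K27ac, from 88 and 122 summits in the libraries labelled H3K4me1 shLUC and 54 and 63 in those labelled H3K27ac shLUC. Both genes also differed between the antibodies within shHNRNPU cells, RBFOX1 with 1.08 times the average for H3K4me1 against 0.319 for H3K27ac and MAD1L1 with 2.77 against 9.70. AUTS2 (1.74) and EBF1 (4.27), both transcriptional regulators, were the further leading genes on the higher side for H3K4me1, and PCDH15 (−1.79) and SCAPER (−1.72) on the lower. For H3K27ac, MGAT4C (1.85) and SYNE2 (1.24) were on the higher side and MAML3 (−1.97) and LRMDA (−1.69) on the lower. Before scaling to the list totals, MGAT4C held 11, 10, 15 and 17 summits in shHNRNPU against 10 and 11 in shLUC. SYNE2 held 21, 17, 25 and 32 against 28 and 30. The place of these 2 genes on the higher side thus rests on the scaling to lists of different length.

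POLIIS2P had a single shHNRNPU#1 library, so its comparison has no test. The log2 ratio of the long bodies was −1.17 in shHNRNPU#1 and −0.88 and −0.98 in shLUC, a difference of −0.24 from the shLUC mean, with 0.11 between the shLUC libraries. The difference ran with gene length. It was 0.13 in genes under 30 kb, 0.0097 at 30 to 100 kb, −0.083 at 100 to 400 kb and −0.24 at 400 kb or more, and −0.0071 outside protein-coding genes. In the shortest class and the 2 longest classes the shHNRNPU#1 library lay outside the range of the shLUC libraries. The shHNRNPU#1 list was also the shortest, with 78211 summits against 85309 and 83574 in shLUC. With the 20000 strongest summits of each list the difference at 400 kb or more was −0.16, and the part of list length was not tested. Along the genes, beyond 400 kb from the start the density was 0.318 in shHNRNPU#1 and 0.381 and 0.356 in shLUC, at 100 to 200 kb 0.505 against 0.628 and 0.586, and at 5 to 20 kb 0.741 against 0.768 and 0.784. In the last 1 to 5 kb before the 3′ end it was 1.54 against 1.79 and 1.73. The share of long genes with an end summit was 43.7% against 48.0% and 45.2%, and the share of all protein-coding genes was 62.1% against 64.3% and 62.6%.

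Gene by gene and scaled to the length of the lists, 161 of the 465 long genes (34.6%) had fewer POLIIS2P body summits in shHNRNPU#1 than in both shLUC libraries, against 28.8% of all 6011 genes of 50 kb or more. More than in both were found in 79 (17.0%), against 27.8%. These counts use no filter, and genes at 0 throughout count as neither. An average of at least 3 summits was reached by 220 long genes, of which 131 (59.5%) were below both, against 39.7% of 3528, and 37 (16.8%) above both, against 30.7%. That average takes 2 of its 3 libraries from shLUC, so genes high in shLUC pass more easily and the 220 genes are a description only. The genes named next come from these 220 and were picked for their difference after their values were seen. PLD5, a phospholipase D family member, held 0 POLIIS2P summits in shHNRNPU#1 and 10 and 8 in shLUC. EDIL3, an integrin ligand, held 1 against 14 and 8, and CDK14, a cyclin-dependent kinase, 5 against 30 and 17. SYT1, a calcium sensor of synaptic vesicles, held 13 against 45 and 37, and RYR2, a calcium release channel, 8 against 25 and 18. TMEM132D was lower as well, with 19 against 47 and 42. In the opposite direction, TBC1D5, a Rab GTPase-activating protein, held 9 against 6 and 1, and CDH4, a cadherin, 21 against 13 and 11. With 1 library these counts describe that library, and a difference between libraries cannot be told apart from an effect of the shRNA.

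**Figure D5:**
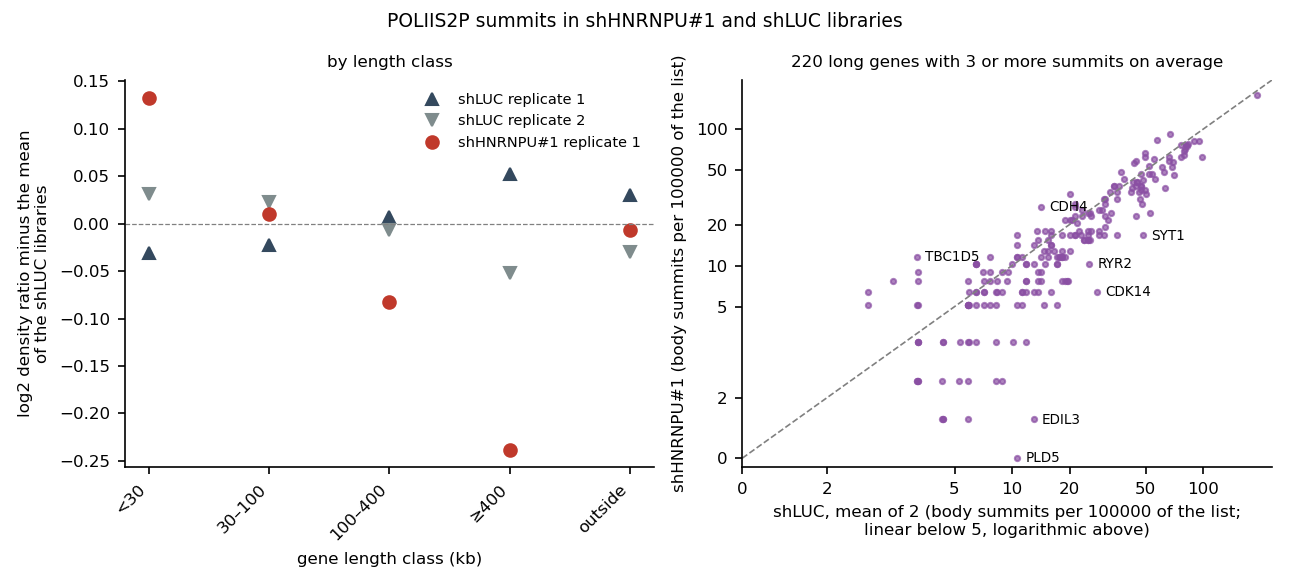
Left, POLIIS2P log2 density ratio of each library minus the shLUC mean (vertical axis) by gene length class (horizontal axis). Right, POLIIS2P body summits per 100000 summits of the list for 220 long genes. The vertical axis is shHNRNPU#1, the horizontal axis the mean of the shLUC libraries, and the dashed line marks equal values. Below both shLUC libraries lay 131 genes (59.5%), against 39.7% of 3528, and above both 37 (16.8%), against 30.7%. The filter behind the 220 genes takes 2 of its 3 libraries from shLUC. Without it the shares of long genes were 34.6% below both, against 28.8%, and 17.0% above both, against 27.8%.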

How the data were processed

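The authors deposited a list of summits per library with a score per summit, read as −log10 of a p-value or q-value from the layout of the lists. Per the submitters' processing notes the tools were cutadapt, Bowtie2, SAMtools, MACS2 and deepTools on hg38, and the versions were not given in the sources used here. The study's listed paper describes other cells and was not used for methods. An interval list of both HNRNPU repeats was not used. Gene spans, strands and promoters came from RefSeq (GRCh38.p14). Summits were counted in bodies from 1000 bp inside each end and in windows of 1000 bp around the ends, and divided by the list's average over chromosomes 1 to 22, each taken to its farthest summit or gene end. Overlapping bodies were joined. Groups and replicate numbers follow the sample titles.

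Libraries were compared with exact permutation tests (two-sided), computed with numpy 2.4.6. Per-gene counts were fitted with limma 3.58.1 (R 4.3.3) on log2 of summits + 0.5, scaled to the list total, for genes of at least 50 kb with 3 or more summits on average, at an adjusted p of 0.05. The fold changes of low genes are understated on this scale. On simulated counts for the exchanged H3K27ac comparison (3191 genes), 26% of 100 2-fold and 77% of 100 4-fold changes were found, with 2 false calls. The changes were placed only in genes with counts well above the filter. The spread between simulated libraries was set in advance and not taken from the data, so these shares do not cover genes near the filter. The named genes followed a rule: per antibody the 4 highest and 2 lowest body ratios, the 5 longest genes, up to 3 genes per direction with the smallest adjusted p of each comparison, the 2 highest and the lowest POLIIS2P ratio of each list, and 4 promoters by HNRNPU score. A gene that this rule selects is not reported here. Members, lists and rules were chosen with earlier results of these data known. Alternatives covered the summits used, the length minimum, the end window, the added count, the filter (also, added after seeing the data, for POLIIS2P gene by gene), the replicate block and single libraries left out. P-values measure the spread between these libraries only.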

Additional observations from a re-analysis of the deposited data

Results flagged for a closer look

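With the shLUC names exchanged, the H3K27ac density of long gene bodies moved in opposite directions under the 2 shRNAs. It was −0.19 on the log2 scale for shHNRNPU#1 and 0.04 for shHNRNPU#2, each against shLUC, so that the effects differed by −0.232. Both repeats of an shRNA fell on the same side, and the difference was not tested. The H3K27ac lists of shHNRNPU#1 held 51063 and 39982 summits and those of shHNRNPU#2 held 74274 and 84085, so list length moves with the shRNA, and its part in the difference was not tested. In the 4 groups of 4 libraries examined for a library far from the others, none was found.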

How the results depend on the processing

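Body densities of long genes kept their sign in all alternatives except 1. H3K4me1, at the list average, turned to 0.077 with a minimum length of 300 kb and was −0.21 at 600 kb. With minimum lengths of 300 and 600 kb H3K27ac was −0.26 and −0.68, HNRNPU −0.59 and −0.85, and POLIIS2P −0.76 and −1.51. With the 20000 strongest summits H3K27ac was −0.60, HNRNPU −1.11 and POLIIS2P −1.84, and with the 10000 strongest −0.72, −1.75 and −2.27. With a minimum score of 5 HNRNPU was −1.41 and POLIIS2P −1.40. Without the ends of other genes HNRNPU was −0.75. Against shorter gene bodies the values were −0.53 for H3K4me1, −1.12 for H3K27ac, −0.83 for HNRNPU and −2.02 for POLIIS2P. End shares moved with the window, to 51.2% (H3K4me1), 45.2% (HNRNPU) and 37.4% (POLIIS2P) at 500 bp and 83.4%, 61.8% and 52.8% at 2500 bp. With the 20000 strongest summits they were 7.80% (H3K4me1), 17.3% (H3K27ac), 43.2% (HNRNPU) and 17.5% (POLIIS2P), and with a minimum score of 5 they were 57.5%, 22.6%, 34.0% and 30.5%.

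Replicate numbers did not pair the libraries: 0 of 3 pair correlations exceeded 0.1 in each comparison. With a replicate block the H3K4me1 minus H3K27ac difference of 0.39 had p = 0.0556 (exact permutation test), the smallest a block allows, and the block moved no count of genes by more than 1.5 times. For POLIIS2P in shHNRNPU#1, the 20000 strongest summits gave −0.16. By length class, an alternative chosen after seeing the data, they gave 0.055, −0.036, −0.061 and −0.16 from the shortest to the longest, so the class of 30 to 100 kb changed sign.

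Leaving out single libraries gave −0.048 to −0.019 (H3K4me1), −0.46 to −0.37 (H3K27ac), −0.71 to −0.68 (HNRNPU) and −1.08 to −0.93 (POLIIS2P). The as-labelled counts of long genes passing the limma threshold were 257 and 174 and became 127 and 79 with the 20000 strongest summits. Leaving out libraries gave 217 to 275 for H3K4me1 and 49 to 181 for H3K27ac, the lowest (49 and 51) without H3K27ac shLUC replicate 1 or 2. With exchanged names and joined lists the counts were 0 in every alternative. With an added count of 2 the as-labelled H3K4me1 split over all genes went from 965 higher and 972 lower to 669 and 1400.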
